A study of Homo sapiens with 6 samples.

Results

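A set of 10 genes of blood vessel growth, read by 19 of the 22283 probe sets on the array, was followed in the established breast cancer line Hs578T, of human origin, in which the homeobox transcription factor HOXA5 could be induced. The genes were taken by name, as every probe set for which the platform's probe table gives 1 symbol and that symbol is VEGFA, VEGFC, KDR, FLT1, NRP1, EFNA1, EPHA2, THBS2, ANGPT1 or ANGPT2, because HOXA5 is reported to restrain angiogenesis. The groups were cells before induction (0 h), 6 h after it and 9 h after it, each with 2 Affymetrix arrays, 1 from each of 2 experiments that the labels describe as separate batches of RNA. All groups carried the same inducible HOXA5 construct and were seeded 24 h before induction. The sources used here give neither the inducing agent or its dose nor whether the line is 1 clone. No uninduced array of 6 h or 9 h is among the samples, so time in culture and the inducing agent cannot be told apart from induction. The title of the series gives the target genes of HOXA5 as the question, and HOXA5 itself was not analysed here.

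Vascular endothelial growth factors are secreted ligands: VEGFA acts mainly through the receptor tyrosine kinases FLT1 and KDR on endothelial cells, with NRP1 as a co-receptor, and VEGFC acts mainly on lymphatic vessels. The angiopoietins ANGPT1 and ANGPT2 bind the endothelial receptor TEK, EFNA1 is a membrane-bound ligand of the receptor EPHA2, and THBS2 is a matrix protein that inhibits vessel growth. In a tumour cell line the VEGF and angiopoietin ligands stand mostly on the sending side, since their main signalling receptors belong to endothelial cells. The receptor genes EPHA2 and NRP1 were themselves read above the floor in the cells studied here, as given below. In endothelial cells HOXA5 has been reported to lower KDR and EFNA1 and to raise THBS2, and those cells were not examined here.

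Mesenchymal, epithelial, leukocyte and endothelial markers were checked against the labelled line. Of 9 mesenchymal markers, among them VIM and FN1, 8 lay above the floor on all 6 arrays. Of 8 luminal epithelial markers, 6 did so (ESR1, KRT8, KRT18, GATA3, FOXA1 and ERBB3), CDH1 was above the floor on 3 arrays and EPCAM was at it on all 6. Of all probe sets that are not array controls, 60.2% lay above the floor on all 6 arrays. ESR1, FOXA1 and ERBB3 were dim, between 17.1 and 56.1 in normalised intensity. KRT8 read between 35.4 and 76.7, GATA3 between 114 and 193 and KRT18 between 781 and 3510. The mesenchymal markers ranged as widely: VIM read between 4282 and 7670, COL1A1 between 90.9 and 193 and TWIST1 between the floor and 59.7. Of 5 leukocyte markers on the array, CD3E, ITGAM and CD79A lay above the floor on all 6 arrays, PTPRC on 4 and CD14 on 1. Of 11 endothelial markers, CDH5, CLDN5 and TIE1 were at the floor on all 6 arrays and PECAM1, ERG and CD34 above it on all 6. The other 5 were above it on some arrays (PLVAP on 5, SELE on 4), and the summed normalised intensity of the list stayed between 220.2 and 269 over the 6 arrays. The floor, 12.7 intensity units or 3.67 on the log2 scale, is the 25th percentile of the quantile-normalised values and not a test of presence. A change that uses an array at the floor has a size set by the floor. The true one may be larger where only the lower group is at the floor. Otherwise it may be larger, smaller or of the other sign. The deposited arrays differed in brightness, with medians between 18.7 and 95.7, and without scaling the typical (median) tested probe set had a log2 change of -1.34 at 6 h and -0.56 at 9 h. All changes below are therefore relative to the whole array. ACTB, whose 3' to 5' signal ratio is a sign of RNA quality, had a ratio of 1.82 on the 9 h array of experiment 1 and between 0.918 and 1.09 on the other 5 arrays, and the part of this in the results was not tested.

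No probe set of these genes passed the test in any comparison. By limma with Benjamini-Hochberg adjustment over 18360 tested probe sets, 0 of the 16 tested members passed at 6 h against 0 h (0% of all tested probe sets passed), 0 at 9 h against 0 h (0% of all), 0 at 9 h against 6 h (0% of all) and 0 for both induced times against 0 h (0% of all). A second fit, called the blocked fit below, added the experiment as a block. It also passed 0 members in the 4 comparisons, where 0% of all probe sets passed at 6 h and for 9 h against 6 h, 0.359% at 9 h against 0 h and 0.163% for both induced times against 0 h. At an unadjusted p under 0.05 the members numbered 1 at 6 h, of FLT1 (4.77% of all probe sets), and 3 at 9 h, 2 of VEGFA and 1 of FLT1 (7.41% of all). They numbered 3 for 9 h against 6 h (5.27% of all) and 2, both of VEGFA, for the induced times together (6.19% of all). The FLT1 probe set counted at 6 h, 222033_s_at, is also 1 of the 3 for 9 h against 6 h. It was tested through its 6 h arrays, the group where it was high, so it adds no support. In the blocked fit an unadjusted p under 0.05 was reached by 4 members at 6 h (9.7% of all) and by 6 at 9 h (13.9% of all). The same FLT1 probe set is 1 of the 4 at 6 h. Those at 9 h were 2 probe sets of VEGFA, 2 of NRP1, 1 of FLT1 and 1 of EPHA2. The largest difference was in VEGFA, which had about 2.58 times its 0 h level at 9 h on its brightest probe set. A value that misses the threshold with 2 arrays a group does not show that a gene was unaltered.

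Promoter sequence was available in the RefSeq table (GRCh38.p14) for 6 of the 10 genes: VEGFC, KDR, FLT1, EFNA1, EPHA2 and THBS2. The 250 bases before the start site were searched on both strands for the HOX core TAAT, found in 47.4% of 35116 promoter windows of this length, the hypoxia response core ACGTG (18.5% of windows), the AP-1 site TGANTCA (6.57%) and the GC box GGGCGG (42.6%). The element TGACGTCA, to which CREB and ATF factors bind, was added after these sequences had been read and occurs in 1.65% of windows. FLT1 and EPHA2 are shown because they were the genes with a probe set whose 9 h arrays both lay below both 0 h arrays, and THBS2 because it is the other gene whose window holds the HOX core. Capitals mark a match to TAAT, ACGTG or GGGCGG on either strand or to TGACGTCA. The windows are chr13:28495129-28495378 for FLT1, chr1:16156070-16156319 for EPHA2 and chr6:169253847-169254096 for THBS2, all on the minus strand and written 5′ to 3′.
FLT1: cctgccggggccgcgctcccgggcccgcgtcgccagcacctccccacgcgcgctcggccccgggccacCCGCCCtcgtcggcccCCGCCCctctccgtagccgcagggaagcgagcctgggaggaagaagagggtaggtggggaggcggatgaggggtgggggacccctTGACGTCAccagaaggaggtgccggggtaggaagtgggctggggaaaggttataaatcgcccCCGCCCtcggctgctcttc
EPHA2: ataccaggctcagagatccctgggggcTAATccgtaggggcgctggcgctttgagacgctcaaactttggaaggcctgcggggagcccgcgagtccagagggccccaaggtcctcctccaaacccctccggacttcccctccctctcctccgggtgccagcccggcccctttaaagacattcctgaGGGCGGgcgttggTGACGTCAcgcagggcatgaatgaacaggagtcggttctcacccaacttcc
THBS2: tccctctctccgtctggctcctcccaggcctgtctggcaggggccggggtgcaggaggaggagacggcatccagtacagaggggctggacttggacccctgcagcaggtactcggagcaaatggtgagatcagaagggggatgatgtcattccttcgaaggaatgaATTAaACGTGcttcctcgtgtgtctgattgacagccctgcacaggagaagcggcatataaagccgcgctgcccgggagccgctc

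The HOX core was present once in the window of EPHA2, at 223 to 220 bases before the start site, and once in that of THBS2, at 84 to 81 bases. It was not among the letters of the VEGFC, KDR, FLT1 or EFNA1 windows. The hypoxia response core was found in THBS2 alone, at 79 to 75 bases, close to its HOX core. The AP-1 site was found in none of the 6 windows. TGACGTCA lay at 81 to 74 bases in FLT1 and at 51 to 44 bases in EPHA2 and in none of the other 4 windows. GC boxes numbered 5 in EFNA1, 3 in FLT1, 2 in VEGFC, 2 in KDR, 1 in EPHA2 and 0 in THBS2. A match describes the letters of the window and is not a measured binding site.

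Among the ligands, VEGFA is read by 4 probe sets, all above the floor on all 6 arrays. Probe set 210512_s_at had a normalised intensity of 293, 250.5 and 607 at 0, 6 and 9 h in experiment 1, and of 148, 322 and 476 in experiment 2. Both 9 h arrays lay above all 4 others, and the 6 h arrays overlapped the 0 h arrays. The log2 change at 9 h against 0 h was 1.37 ± 0.38 (standard error, n = 2 arrays per group), by 1.05 in experiment 1 and 1.69 in experiment 2, with a limma adjusted p = 0.577, or 0.104 in the blocked fit. Leaving out the 0 h array of experiment 2 gave 0.88, leaving out the other 0 h array gave 1.86, and unscaled values gave 0.82. Against 6 h the 9 h log2 change was 0.92 ± 0.38 (limma adjusted p = 0.932).

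Probe set 212171_x_at of VEGFA read 218, 309 and 322 in experiment 1 and 211, 359.8 and 454 in experiment 2 at 0, 6 and 9 h. Here the arrays of 6 h and of 9 h all lay above both 0 h arrays. The log2 change was 0.64 ± 0.29 at 6 h and 0.83 ± 0.29 at 9 h against 0 h (limma adjusted p = 0.969 and 0.621). In the blocked fit the adjusted p at 9 h was 0.183. The other VEGFA probe sets lay closer to their 0 h level at 9 h. Probe set 210513_s_at read 165, 207 and 151 in experiment 1 and 142, 178 and 204 in experiment 2, with a log2 change at 9 h of 0.20 ± 0.32, and it too had both 6 h arrays above both 0 h arrays. Probe set 211527_x_at read 77.7, 85.6 and 70.7 in experiment 1 and 60.5, 46.5 and 102 in experiment 2, with 0.31 ± 0.48. At 9 h all 4 had a positive change on average, but the last 2 had opposite signs in the experiments (-0.13 and 0.52 for 210513_s_at, -0.14 and 0.75 for 211527_x_at) and turned negative in unscaled values. Their mean change at 9 h over the 4 probe sets was 0.68. At 6 h the log2 changes of 210512_s_at, 210513_s_at and 211527_x_at were 0.45, 0.33 and -0.12. The first became -0.046 on dropping the 0 h array of experiment 2, and lay at -0.23 in experiment 1 and 1.12 in experiment 2. Unscaled, all 4 were lower at 6 h, between -1.50 and -0.93.

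**Figure D1:**
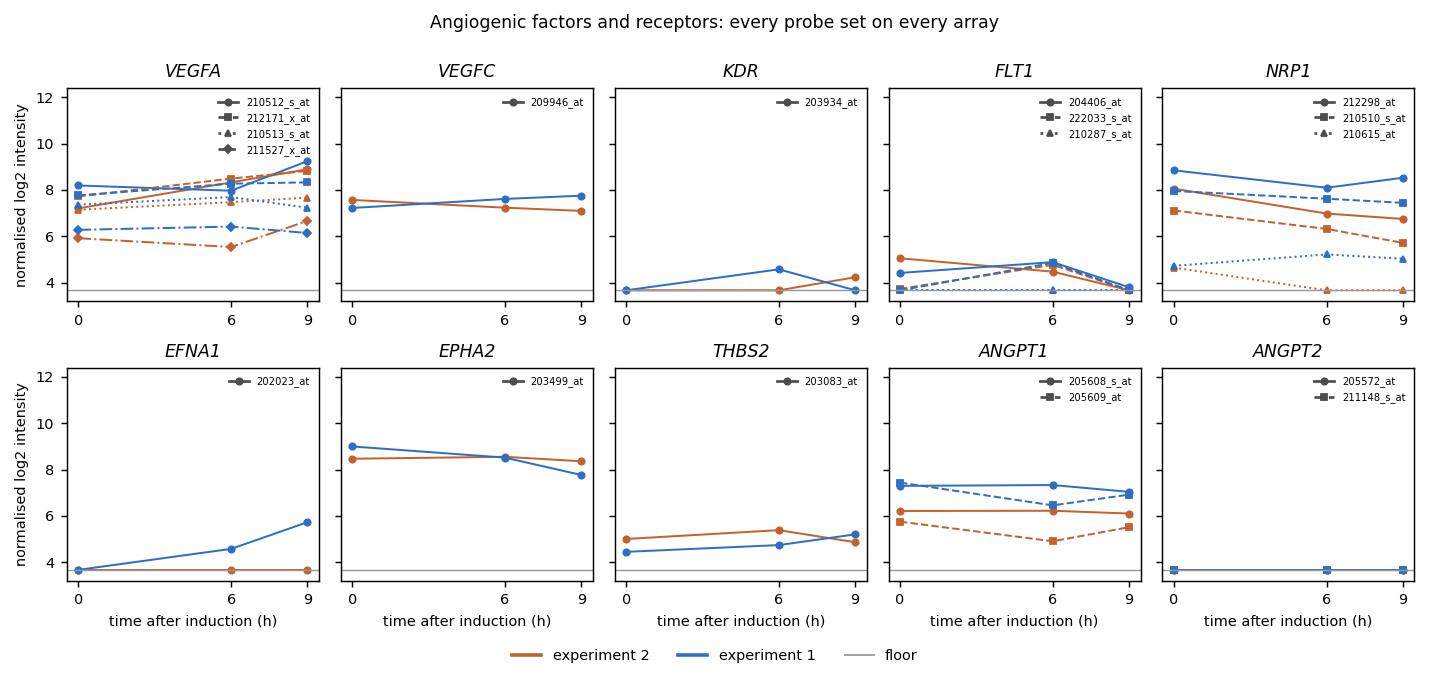
Normalised log2 intensity (y axis) of every probe set of the 10 genes against hours after induction (x axis), 1 line per experiment, with the floor as a grey line. The top VEGFA probe set ends highest at 9 h in both experiments, the NRP1 and ANGPT1 lines of experiment 2 lie below those of experiment 1, and both ANGPT2 probe sets lie on the floor throughout.

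VEGFC, the lymphatic ligand, read 149.6, 196 and 216 in experiment 1 and 190.2, 151 and 137 in experiment 2. The experiments ran in opposite directions, and the log2 change against 0 h was 0.03 ± 0.36 at 6 h and 0.03 ± 0.36 at 9 h (limma adjusted p = 1.00 and 0.996).

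The angiopoietins differed in whether they were measured at all. Both probe sets of ANGPT2, which is known to antagonise ANGPT1 at TEK in many settings, were at the floor on all 6 arrays, with deposited intensities of at most 11.2. Of all probe sets that are not array controls, 11.1% were at the floor on all 6 arrays. ANGPT1, which stabilises vessels, lay above the floor on all 6 arrays in both of its probe sets. Probe set 205608_s_at read 157, 161 and 131 in experiment 1 and 74.1, 74.6 and 68.6 in experiment 2. Probe set 205609_at read 173, 87.6 and 121 in experiment 1 and 53.8, 29.9 and 45.6 in experiment 2. The second was lowest at 6 h in both experiments, which the first was not. The log2 change of 205609_at at 6 h against 0 h was -0.92 ± 0.80 (limma adjusted p = 0.969, or 0.496 in the blocked fit), while that of 205608_s_at was 0.02 ± 0.59. In the blocked fit, which takes out the gap between the experiments, their standard errors were 0.39 and 0.33. At 9 h against 0 h they had -0.38 ± 0.80 and -0.18 ± 0.59, and each range over the fits that left out 1 array crossed 0 (-1.22 to 0.46 and -0.73 to 0.36).

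EFNA1, the ligand of EPHA2, was at the floor on both 0 h arrays and on all 3 arrays of experiment 2. It was thus tested through induced arrays alone, and its normalised change against 0 h could not be negative. In experiment 1 it read 23.8 at 6 h and 53.0 at 9 h. Experiment 1 thus carried the whole difference: the log2 change at 9 h was 1.03 ± 0.67 (limma adjusted p = 0.794), 0 on dropping the 9 h array of experiment 1 and 2.06 on dropping the other 9 h array. The deposited intensities of experiment 1, before any floor, were 21.0 at 0 h, 10.0 at 6 h and 53.4 at 9 h, and without scaling the 6 h change was -0.46. Those of experiment 2 were 7.3, 6.4 and 3.6.

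Among the receptors, FLT1 is read by 3 probe sets, and they did not show the same course. Probe set 204406_at read 21.4, 29.6 and 13.9 at 0, 6 and 9 h in experiment 1 and 33.2, 22.2 and the floor in experiment 2. Both 9 h arrays lay below the other 4, and the 9 h log2 change against 0 h was -1.001 ± 0.39, by -0.62 in experiment 1 and by -1.38 in experiment 2, where the 9 h array was at the floor and the value is a bound (limma adjusted p = 0.657, or 0.358 in the blocked fit). It was -1.62 in unscaled values and between -1.32 and -0.68 with 1 of the arrays left out. At 6 h it had -0.06 ± 0.39, with opposite signs in the experiments, and 0.20 after scaling to equal trimmed means.

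Probe set 222033_s_at of FLT1 stood at 28.9 and 27.2 at 6 h in experiments 1 and 2, against the floor and 13.3 at 0 h, and at the floor on both 9 h arrays. Both 6 h arrays lay above all others. The 6 h log2 change against 0 h was 1.11 ± 0.31 (limma adjusted p = 0.969), by 1.03 in experiment 2 and by 1.18 in experiment 1, where the 0 h array was at the floor, and it was 0.50 in unscaled values. It was the 1 member probe set at least 2-fold higher at 6 h in both experiments, as were 1.24% of all tested probe sets. Its deposited intensities at 0 h and 6 h were 7.0 and 11.9 in experiment 1 and 11.9 and 22.0 in experiment 2. With cyclic loess, another scaling between arrays, its 6 h log2 change was 0.40. The 9 h level was at least 2.20-fold lower than the 6 h level (limma adjusted p = 0.932). It was above the floor on 3 arrays, both of 6 h among them, and so was tested through the group where it was high. Only in a fit without the filter on dim probe sets did it pass, at 6 h against 0 h (limma adjusted p = 0.0224) and at 9 h against 6 h (limma adjusted p = 0.0294). That fit adds 3855 probe sets with at most 1 array above the floor and so with almost no spread, and the call is given as a property of that fit alone. The third FLT1 probe set, 210287_s_at, was at the floor on all 6 arrays. After normalisation both measured FLT1 probe sets were lower at 9 h than at 6 h in both experiments. For 222033_s_at that fall starts from the group through which it was tested, so it adds no support. For 204406_at in experiment 1 the deposited intensities were 12.1 at 6 h and 13.4 at 9 h, so the fall there depends on the scaling. The probe sets differed in how 0 h compared with 6 h.

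KDR, the main signalling receptor for VEGFA, was above the floor on 2 arrays, with 23.8 at 6 h in experiment 1 and 18.8 at 9 h in experiment 2. Its deposited intensities were between 3.9 and 16.7. At this signal a difference in KDR was not detectable.

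The co-receptor NRP1 is read by 3 probe sets. Probe set 212298_at read 461, 274 and 369 in experiment 1 and 266, 126 and 108 in experiment 2. Within each experiment both induced arrays lay below the 0 h array, but the groups overlapped, since experiment 1 was the higher at every time. The log2 change was -0.91 ± 0.65 at 6 h and -0.81 ± 0.65 at 9 h against 0 h (limma adjusted p = 0.969 and 0.835, or 0.404 and 0.258 in the blocked fit). These standard errors include the gap between the experiments, and in the blocked fit they were 0.29 at both times. Dropping the 9 h array of experiment 2 brought the 9 h change to 0.076, and dropping the other 9 h array brought it to -1.70. Probe set 210510_s_at read 249, 197 and 174 in experiment 1 and 139, 79.85 and 52.6 in experiment 2. Its log2 change was -0.56 ± 0.69 at 6 h and -0.96 ± 0.69 at 9 h, with a standard error of 0.33 in the blocked fit. The dimmest, 210615_at, read 26.5, 37.2 and 32.7 in experiment 1 and 25.1, the floor and the floor in experiment 2, so its experiments differed in sign.

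EPHA2, a receptor tyrosine kinase often abundant in basal breast cancer lines, read 510.5, 365 and 218 in experiment 1 and 354, 375 and 328 in experiment 2. Both 9 h arrays lay below both 0 h arrays. The log2 change at 9 h against 0 h was -0.67 ± 0.32, by -1.23 in experiment 1 and -0.11 in experiment 2 (limma adjusted p = 0.703, or 0.330 in the blocked fit). Dropping the 9 h array of experiment 1 gave -0.37, and dropping the other 9 h array gave -0.97. At 6 h the change was -0.20 ± 0.32 and the experiments differed in sign. For both EPHA2 and its ligand EFNA1 the 9 h difference was larger in experiment 1, where the ligand was higher and the receptor lower than at 0 h. The 9 h array of experiment 1 had the highest ACTB 3' to 5' ratio, 1.82, and EFNA1 was at the floor at 0 h. The part of this in the difference was not tested.

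The inhibitor THBS2, a thrombospondin, read 21.8, 26.7 and 36.8 in experiment 1 and 32.05, 41.8 and 29.1 in experiment 2. At 6 h it was above its 0 h level within both experiments, by 0.29 and 0.38 on the log2 scale, and the mean change was 0.34 ± 0.46 (limma adjusted p = 0.973). At 9 h it was 0.31 ± 0.46, by 0.75 in experiment 1 and -0.14 in experiment 2 (limma adjusted p = 0.926). In unscaled values both changes were negative, -0.93 at 6 h and -0.28 at 9 h.

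**Figure D2:**
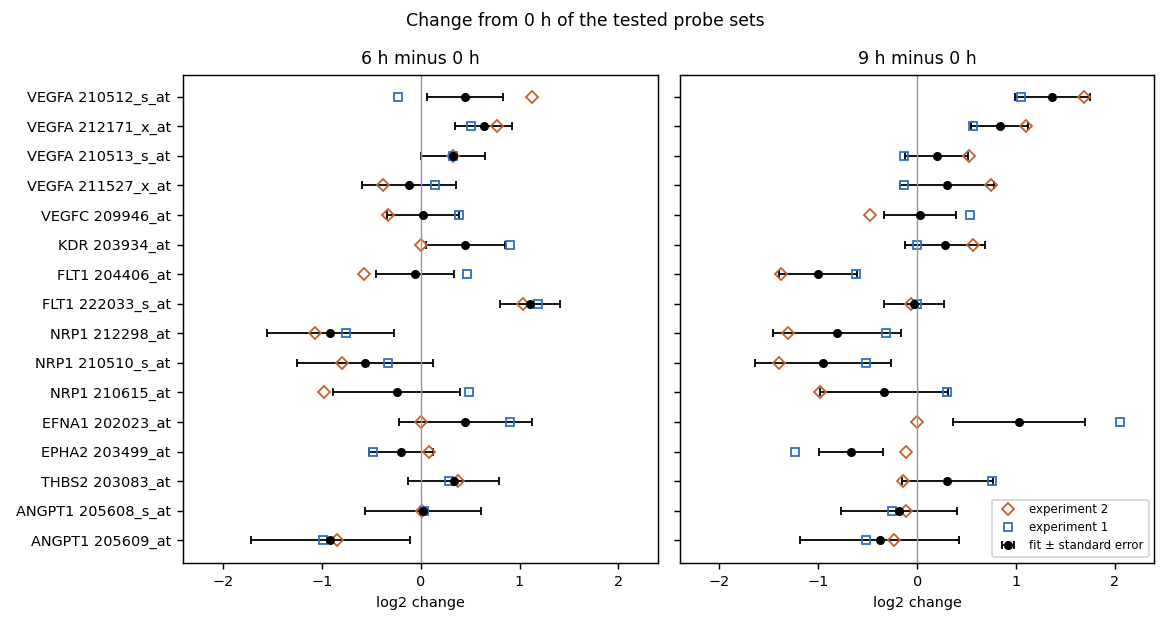
Log2 change of the 16 tested probe sets at 6 h and at 9 h against 0 h (x axis), with the fitted change and its standard error in black (n = 2 arrays per group) and the change within each experiment as open symbols. At 9 h the first 2 VEGFA probe sets lie right of 0 in both experiments, FLT1 204406_at lies left of 0 in both, and EFNA1 is displaced in experiment 1 alone.

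Over all 16 tested member probe sets, 8 had a positive and 8 a negative log2 change at 9 h against 0 h, with a median of -0.002, beside -0.02 over all 18360. At 6 h 9 were positive and 7 negative, with a median of 0.02 beside -0.003. KDR and EFNA1 are among the positive ones at both times. They were at the floor on both 0 h arrays and were tested through induced arrays alone. Their changes against 0 h in the normalised values could therefore not be negative. Probe sets whose 9 h arrays both lay above both 0 h arrays numbered 2 of 16 members, both of VEGFA, or 12.5%, where 18.3% of all tested probe sets did so. Those with both 9 h arrays below numbered 2, FLT1 and EPHA2, where 19.1% of all did so. At 6 h 3 members lay apart on the higher side, 2 of VEGFA and 1 of FLT1 (16.1% of all), and 0 on the lower side (16.2% of all). Between 9 h and 6 h, 1 member lay apart on the higher side (14.9% of all) and 3 on the lower side, of FLT1 and EPHA2 (15.1% of all). The higher count at 6 h and this lower count include FLT1 222033_s_at. That probe set was tested through the 6 h arrays, where it was high, so it adds no support. A gain of at least 2-fold in both experiments at 9 h was seen in 1 member, the brightest VEGFA probe set (2.14% of all). At 6 h 5 members were higher in both experiments (25.3% of all), 3 lower in both (25.8% of all) and 6 opposite (41.1% of all). At 9 h 2 members were higher in both experiments (26.9% of all), 6 were lower in both (28.9% of all) and 5 had opposite signs (36.2% of all). The 6 lower in both, 37.5% of the members, were 2 probe sets each of NRP1 and ANGPT1 and 1 each of FLT1 and EPHA2.

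In 2 of the 9 tested genes, all tested probe sets differed between the experiments in 1 direction at every time. ANGPT1 and NRP1 were lower in experiment 2 than in experiment 1 at 0, 6 and 9 h in all 5 of their tested probe sets, where 17.9% of all probe sets were lower at all 3 times. For ANGPT1 205609_at the log2 difference, experiment 2 minus experiment 1, was -1.69 at 0 h, -1.55 at 6 h and -1.40 at 9 h, and for 205608_s_at it was -1.08, -1.11 and -0.94. For NRP1 212298_at it was -0.79, -1.11 and -1.78, for 210510_s_at -0.84, -1.31 and -1.73, and for the dim 210615_at -0.08, -1.55 and -1.36. The difference in ANGPT1 varied little with time, while that in NRP1 was larger at 6 h and 9 h than at 0 h in its 3 probe sets and largest at 9 h in the first 2. Being chosen after the values were seen, this difference was not tested. All 3 arrays of experiment 2 lay below all 3 of experiment 1 in 5 of 16 member probe sets, where 9.31% of all tested probe sets did so, and 0 members lay above (9.8% of all). An average difference of at least 2-fold, lower in experiment 2, was seen in 4 members (4.4% of all). Of the 9 mesenchymal markers, 5 were lower in experiment 2 at all 3 times (FN1, SPARC, COL1A2, TWIST1 and CAV1) and 4 were higher at all 3 (VIM, CD44, COL1A1 and AXL). Their summed normalised intensity was 18484, 17908 and 17777 in experiment 2 and 18141, 17364 and 17037 in experiment 1 at 0, 6 and 9 h. Of the 8 luminal markers, KRT18, a keratin of simple epithelia, was lower in experiment 2 at all 3 times, with 851, 781 and 929 against 3510, 1908 and 1950 in experiment 1, and ESR1 and FOXA1 were higher. The luminal sum was 1165, 1155 and 1278 in experiment 2 against 3831, 2151 and 2316 in experiment 1. KRT18 alone carried that gap, since the other 7 summed to 314, 374 and 349.5 in experiment 2 against 320.7, 243 and 366 in experiment 1. The part of these markers in the difference was not tested. In such bulk RNA fewer cells of a type and less RNA per cell cannot be told apart.

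**Figure D3:**
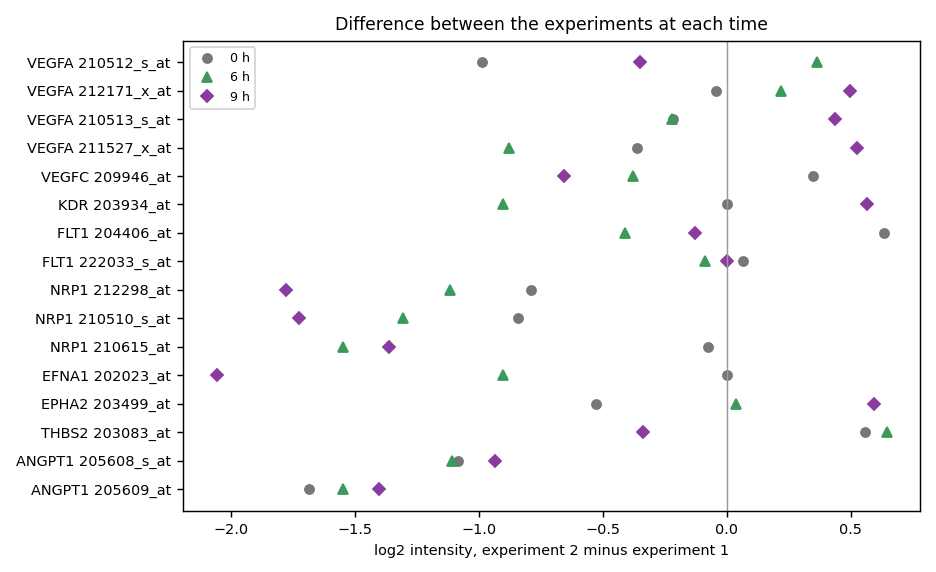
Log2 intensity in experiment 2 minus experiment 1 (x axis) at 0 h, 6 h and 9 h for each of the 16 tested probe sets. The NRP1 and ANGPT1 probe sets lie left of 0 at all 3 times, between -1.78 and -0.08, while those of VEGFA scatter on both sides.

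The wider angiogenesis lists gave the surroundings of these genes. Beside the counts of every list below, 26.9% of all tested probe sets were higher and 28.9% lower in both experiments at 9 h. The median log2 change of all tested probe sets at 9 h was -0.02. The units differ: the lists count genes, each on its brightest probe set, while these shares and this median take every tested probe set, dim ones included. No gene of any list passed by limma at 6 h or 9 h. In the blocked fit 1 passed at 9 h, the chemokine CXCL8, which also draws endothelial cells (limma adjusted p = 0.0355). This call depended on the experiment given to the 6 h array of experiment 2: with the block set by the lot in the labels, 0 of all probe sets passed at 9 h, with a lowest limma adjusted p of 0.548. Its log2 change was 3.68 on average, with 5.12 in experiment 1 and 2.25 in experiment 2. It belongs to the 20 tested genes of other pro-angiogenic factors, of which 7 were higher and 8 lower in both experiments at 9 h, with a median log2 change of -0.05. PTGS2, the inducible cyclooxygenase, read 85.7 and 113 at 9 h in experiments 1 and 2, against the floor and 29.9 at 0 h, a log2 change of 2.33 ± 0.58 (limma adjusted p = 0.555, or 0.0776 in the blocked fit). EDN1, the vasoconstrictor endothelin-1, had 1.26 ± 0.56. Its change was 2.12 in experiment 1, where the 0 h array was at the floor, and 0.40 in experiment 2. PTN, the growth factor pleiotrophin, had 1.40 ± 0.90, positive in 1 of 4 probe sets, by 0.44 in experiment 1 and 2.36 in experiment 2.

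Of the other VEGF and PDGF ligands and receptors, 9 genes were tested, of which 1 was higher and 4 were lower in both experiments at 9 h (median log2 change -0.28). VEGFB, a further FLT1 ligand, had -0.72 ± 0.60, by -0.75 in experiment 1 and -0.69 in experiment 2. PDGFRA and PDGFRB, receptors for platelet-derived growth factors, had -0.67 ± 0.67 and -1.06 ± 0.97, and the ligand gene PDGFB 0.85 ± 0.54, positive in 2 of 4 probe sets; both 9 h arrays and the 0 h array of experiment 2 were at the floor for PDGFRB. The last list of ligands, other angiopoietins and TIE receptors, held 1 tested gene, ANGPTL4 (0.20 at 9 h).

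Of the other ephrins and Eph receptors, 14 genes were tested, of which 3 were higher and 5 lower in both experiments at 9 h, with a median of -0.18. The 4 genes furthest from 0, picked by the size of their change, were receptors with a lower 9 h mean. The other tested Eph receptors had -0.60 (EPHB3), -0.25 (EPHA1), 0 (EPHA3, at the floor at 0 h and 9 h) and 0.11 (EPHA5). EPHB4, the receptor for ephrin-B2 on venous endothelium, read 63.3 and 27.5 at 9 h in experiments 1 and 2, against 120.1 and 93.7 at 0 h, a log2 change of -1.35 ± 0.50 (limma adjusted p = 0.649), negative in both of its probe sets. EPHB1 had -1.07 ± 0.46, EPHB6 -0.82 ± 0.44 and EPHA4 -0.67 ± 0.70, and EPHA4 was negative in experiment 2 (-1.71) and positive in experiment 1 (0.37). The 9 h array of experiment 1 for EPHB1 and that of experiment 2 for EPHA4 were at the floor.

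Among 13 tested angiogenesis inhibitors besides THBS2, 0 were higher and 4 lower in both experiments at 9 h, with a median of -0.20. Over all tested probe sets 26.9% were higher and 28.9% lower, with a median of -0.02. ADAMTS1, a protease that binds VEGFA, had -1.06 ± 0.60, THBS1, the other vessel-inhibiting thrombospondin, -0.81 ± 0.72 (negative in 4 of 5 probe sets), COL18A1, the source of endostatin, -0.60 ± 0.91, and SPARC -0.42. COL18A1 had 0.19 in experiment 1 and -1.39 in experiment 2, where its 9 h array was at the floor. In the hypoxia-inducible factor system, which drives VEGFA when oxygen is low, 8 genes were tested and 2 were higher and 1 lower in both experiments (median 0.12). HIF1A itself read 2056 and 1206 at 9 h against 1453 and 968 at 0 h in experiments 1 and 2, a log2 change of 0.41 ± 0.39. HIF1AN, an inhibitor of HIF1A, had -1.30 ± 0.43 (limma adjusted p = 0.617), ARNT, the partner of HIF1A, -0.59, and the prolyl hydroxylase EGLN3 0.48. For ARNT the change was 0.12 in experiment 1 and -1.31 in experiment 2, where its 9 h array was at the floor. For EGLN3 it was 0.97 in experiment 2, and both arrays of experiment 1 were at the floor. Of 10 Notch genes 3 were higher and 0 lower in both (median -0.01), with NOTCH1 at 0.88, HES1 at 0.66, NOTCH2 at -0.33 and HEY1 at 0.26. HES1 had 1.30 in experiment 1 and 0.03 in experiment 2.

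**Figure D4:**
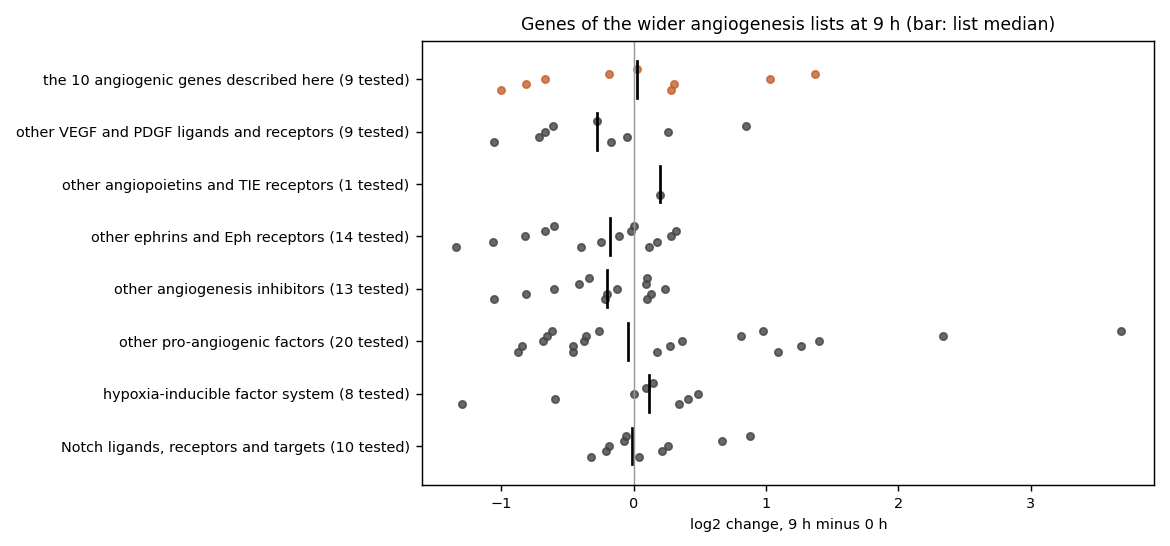
Log2 change at 9 h against 0 h (x axis) of every tested gene in the 10 angiogenic genes and in 7 wider lists (rows), 1 point per gene on its brightest probe set, with a bar at each list's median. The list medians lie between -0.28 and 0.20, and CXCL8 at 3.68 and PTGS2 at 2.33 lie furthest to the right.

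Of the members above the floor on all 6 arrays, each taken on its brightest probe set, NRP1 (2.10 on the log2 scale) and VEGFA (2.04) had the widest range over the arrays. They were set beside 2481 other genes above the floor on all 6 arrays with an SD of at least 0.5. Over these 6 arrays the pattern of NRP1 was most like that of GPR137B (Pearson r = 0.999), TFAP2A (0.998) and MDFIC (0.995), and that of VEGFA most like CTH (0.991), ARID4B (0.981) and GCC2 (0.974). The arrays share 2 experiments and 1 normalisation, so these are descriptions of 6 points.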

How the data were processed

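Total RNA was hybridised to Affymetrix chips, per the labels. The deposited table holds 1 linear intensity per probe set and array, with no scaling between arrays: their 2% trimmed means differ 5.49-fold. Their software: not given in the sources used here. Names of probe sets came from the probe table of the platform.

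Quantile normalisation was followed by a floor at the 25th percentile and a log2 transform. Probe sets above the floor on at least 2 of 6 arrays were tested, without 68 array controls. Changes were fitted with limma 3.58.1 (lmFit, contrasts, eBayes with an intensity trend, R 4.3.3, 3 residual degrees of freedom), two-sided, at an adjusted threshold of 0.05. Each ± is the standard error of this fit, which holds no term for the experiment. The fit was also run on simulated arrays with independent noise and no difference between the experiments. That setting differs from these data, so it does not measure how the fit performs on them. Named genes are every member and, per wider list, up to 4 genes with the largest 9 h change on their brightest probe set. A group wholly at the floor gives a bound.

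The experiment number marks a shared RNA batch per the labels and so pairs arrays. Deviations from the group means correlated at 0.247, 0.336 and 0.391 between arrays of one experiment. For experiment 2, the label of the 6 h array gives the lot of experiment 1, and the title was followed. P-values measure only the spread between these 6 arrays, whose number limits the precision. The members and lists were chosen with earlier results of these data known. Alternatives varied the block, scaling, floor, filter and trend and left out each array.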

Additional observations from a re-analysis of the deposited data

How the results depend on the processing

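No alternative called a member probe set other than FLT1 222033_s_at without the filter on dim probe sets. The counts of probe sets past the threshold were 0 throughout, also with each array left out, except for these. With the experiment in the fit as a replicate block, 66 passed at 9 h against 0 h and 30 for both induced times against 0 h, and it changed no call of a member. With the block by the lot line 0 passed. Without the filter, which adds 3855 dim probe sets with almost no spread at the floor, the counts were 24 at 6 h, 12 at 9 h, 18 at 9 h against 6 h and 17 for both times. Without scaling between arrays 9 passed for both times. The cause was not tested.

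The median of the tested members at 6 h was -1.40 without scaling, beside -1.34 for all probe sets, and from -0.17 to 0.29 with 1 array left out. At 9 h it was 0.047 after scaling to equal trimmed means, -0.49 without scaling, 0.082 with a floor at the 10th percentile, -0.18 with at least 4 arrays above the floor, and from -0.17 to 0.18 with 1 array left out.

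Of 32 member changes, 21 turned sign somewhere. Without scaling, at 6 h, VEGFA had -1.10 (210512_s_at), -0.93 (212171_x_at) and -1.19 (210513_s_at), VEGFC -1.49, EFNA1 -0.46, THBS2 -0.93 and ANGPT1 205608_s_at -1.40, and at 9 h VEGFA -0.35 (210513_s_at) and -0.24 (211527_x_at), VEGFC -0.49 and THBS2 -0.28. With equal trimmed means, VEGFA 211527_x_at had 0.040 and FLT1 204406_at 0.20 at 6 h. With the replicate block by the lot line, VEGFC had -0.050, FLT1 204406_at 0.069, EFNA1 -0.062 and ANGPT1 205608_s_at -0.48 at 6 h. FLT1 222033_s_at at 9 h had 0.13 with the lower floor and 0.010 with no floor.

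With 1 array left out, the ranges that crossed 0 at 6 h were -0.046 to 0.94 (VEGFA 210512_s_at), -0.56 to 0.32 (211527_x_at), -0.16 to 0.22 (VEGFC), -0.37 to 0.26 (FLT1 204406_at), -1.22 to 0.088 and -1.02 to 0.53 (NRP1 210510_s_at and 210615_at), -0.46 to 0.065 (EPHA2) and -0.53 to 0.58 (ANGPT1 205608_s_at). At 9 h they were -0.023 to 0.41 (VEGFA 210513_s_at), -0.30 to 0.36 (VEGFC), -1.70 to 0.076 and -1.02 to 0.34 (NRP1 212298_at and 210615_at), and -0.73 to 0.36 and -1.22 to 0.46 (ANGPT1 205608_s_at and 205609_at). A group left with 1 array is assumed to vary like the others.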
